A study of Homo sapiens with 3 samples.

Results

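The surfeit locus is a tight group of 6 housekeeping genes on the long arm of human chromosome 9: SURF6, MED22 (formerly SURF5), RPL7A (formerly SURF3), SURF1, SURF2 and SURF4. The 6 genes were taken by symbol from 23379 Ensembl genes, each matched by 1 identifier, and all 6 had values in the 3 libraries. The locus was chosen by the low values of SURF1 in WT and L597R and of SURF4 in WT, seen earlier in these libraries, with the other 4 genes added as neighbours. Differences of the members are therefore descriptions without a test. The libraries came from cells labelled DU145, an established line from a metastasis of a human prostate carcinoma. P-Enter is given as a negative control and is called the control below. WT cells overexpressed wild-type BRAF, the kinase that relays RAS signals to MEK and ERK, and L597R cells received plasmids for BRAF with a single exchanged amino acid in its kinase domain. The labels name no clone, selection or time after transfection for any of the 3 groups, and each group is 1 library.

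The surfeit genes are unrelated in sequence but stay together in mammals and birds, with starts in CpG islands and with transcription that switches strand between most neighbours. SURF1 is a mitochondrial inner membrane protein needed to assemble cytochrome c oxidase (respiratory complex IV), and its loss causes Leigh syndrome. SURF4 is a cargo receptor that moves secreted proteins from the endoplasmic reticulum to the Golgi in COPII carriers. SURF6 is a nucleolar protein of ribosome assembly, RPL7A a protein of the large ribosomal subunit whose introns hold small nucleolar RNAs, and MED22 a subunit of the head module of Mediator, which links transcription factors to RNA polymerase II. SURF2 is the least studied of the group. SURF1 and SURF2 share a bidirectional promoter, as do MED22 and RPL7A, and the former, studied mainly in the mouse, is known as a target of ETS proteins and of YY1.

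In GENCODE 29 on GRCh38 the cluster covered 47.39 kb of chromosome 9, from 133328774 to 133376166. From left to right lay SURF6 (ENSG00000148296, 133328774 to 133336398, minus strand), MED22 (ENSG00000148297, 133338323 to 133348131, minus), RPL7A (ENSG00000148303, 133348214 to 133351426, plus), SURF1 (ENSG00000148290, 133351755 to 133356676, minus), SURF2 (ENSG00000148291, 133356552 to 133361169, plus) and SURF4 (ENSG00000148248, 133361449 to 133376166, minus). MED22 and RPL7A pointed away from each other with 82 bp between them, and RPL7A and SURF1 ended 328 bp apart. SURF2 and SURF4 ended 279 bp apart, and SURF6 lay 1924 bp from MED22 on the same strand. SURF1 and SURF2 overlapped by 125 bp at their starts in this annotation, with 119 bp shared between exons. The strand setting of the counting is not given in the sources used here, so reads of those bases cannot be assigned to 1 of the genes with certainty.

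**Figure D1:**
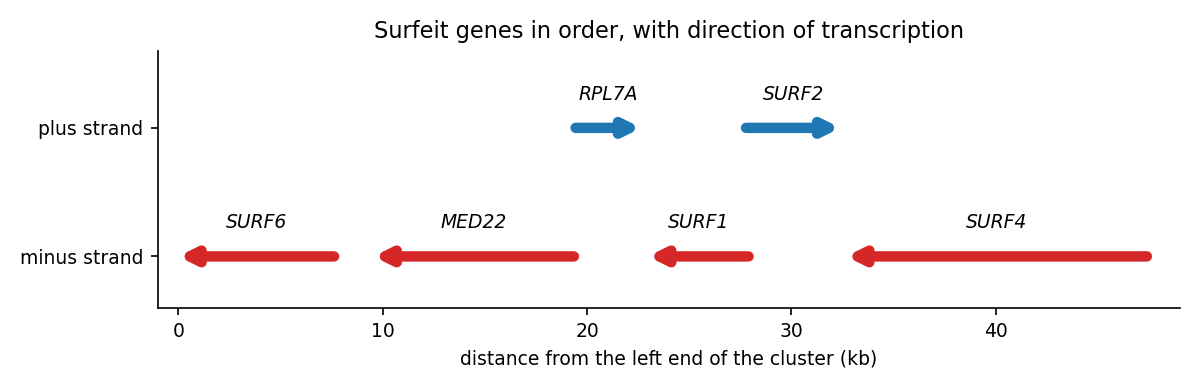
Map of the 6 surfeit genes. The horizontal axis is the distance in kb from the left end of the cluster, and arrows run from the start to the end of each gene on the plus strand (upper row) or the minus strand (lower row). The starts of MED22 and RPL7A, and those of SURF1 and SURF2, face away from each other.

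The shared starts are shown because they are the sequence that each divergent pair has in common. Both stretches are reference sequence of RefSeq on GRCh38.p14 and run from 30 bases inside one transcript to 30 bases inside the other, at chr9:133356458-133356579 on the minus strand (reading towards SURF1) and at chr9:133348102-133348247 on the plus strand (reading towards RPL7A). Capitals mark searched motifs: ETS core (GCGGAAG or CCGGAAG), YY1 (AAGATGGCG or GCCATNTT), E-box (CACGTG), NRF1 (its palindromic consensus), NF-Y (CCAAT), TATA box (TATAAA) and SP1 (GGGCGG), on both strands. The YY1 spellings overlap each other and an SP1 match can run into an ETS core, but no marked matches overlap in these stretches.
SURF1 and SURF2: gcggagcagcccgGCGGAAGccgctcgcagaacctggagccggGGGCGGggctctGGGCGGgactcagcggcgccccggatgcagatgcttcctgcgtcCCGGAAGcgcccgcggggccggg
MED22 and RPL7A: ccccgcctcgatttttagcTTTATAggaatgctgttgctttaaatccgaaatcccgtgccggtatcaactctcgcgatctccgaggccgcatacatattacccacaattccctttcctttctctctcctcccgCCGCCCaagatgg

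The RefSeq starts of SURF1 and SURF2 were 62 bases apart and those of MED22 and RPL7A 86 bases apart. The SURF1 and SURF2 stretch of 122 bases had a GC content of 78.7% and 17 CpG dinucleotides. It held 2 ETS core matches, at bases 14 to 20 and 100 to 106, 1 within the start of each transcript, and 2 SP1 matches between the starts. The MED22 and RPL7A stretch of 146 bases had a GC content of 51.4% and 11 CpG dinucleotides, with a TATA box match at bases 20 to 25 just inside MED22 and an SP1 match inside RPL7A. RPL7A starts in a run of pyrimidines, as messenger RNAs of ribosomal proteins do. RefSeq windows from 250 bases before to 50 after the start were at hand for 4 of the 6 genes (SURF6, RPL7A, SURF1 and SURF4). An ETS core was in the windows of SURF1 (2 matches) and SURF6 (1), against 15.8% of all 35116 promoter windows. SP1 matches were in all 4 windows (2 each in SURF6, RPL7A and SURF1, 3 in SURF4), against 45.0% of all windows. The window of SURF6 alone among the 4 had an E-box and a CCAAT match (7.26% and 34.6% of all windows), and that of RPL7A alone a TATA box match (11.5%). None of the 4 held the YY1 letters or the NRF1 consensus, which 6.58% and 1.24% of windows hold. A match is a description of letters and not a bound site.

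Levels are FPKM as the authors deposited them, that is reads scaled to gene length and library size, and reads were worked out from them. Counted reads numbered 13294004 for the control, 15665132 for WT and 16603676 for L597R. BRAF was at 1.65, 4.41 and 9.59 FPKM in that order. The epithelial keratin KRT18 lay between 34.3 and 37.6 FPKM and KRT7 between 26.9 and 29 FPKM, while KRT8 lay between 0.534 and 0.623 FPKM, E-cadherin (CDH1) had 1, 0 and 0 reads and KRT19 had 3, 0 and 1 reads. The mesenchymal markers VIM and CDH2 lay between 127 and 132 FPKM and between 8.22 and 8.94 FPKM. Markers of leukocytes, endothelium and fibroblasts (PTPRC, PECAM1 and COL1A1) were at 0.109 FPKM or less. The prostate markers KLK3, KLK2 and TMPRSS2 and the epithelial marker EPCAM were not analysed here. With 1 library per group there is no replicate check and no p-value. Intervals are exact, at 95%, and hold counting error alone, so they compare single libraries rather than conditions. In bulk RNA, fewer cells with a transcript and less of it per cell cannot be told apart.

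SURF4, SURF6 and MED22 were low for genes of their function. SURF4 averaged 2.10 FPKM over the 3 libraries, the lowest of 27 listed cargo receptor and COPII genes, whose other members had a median of 24.8 FPKM. SURF6 averaged 0.274 FPKM, the second lowest of 29 nucleolar assembly genes, against a median of 27.1 FPKM for the others. MED22 averaged 0.318 FPKM, the second lowest of 12 Mediator head genes (median of the others 6.96 FPKM). RPL7A averaged 22 FPKM and ranked 5 from the bottom of 46 proteins of the large ribosomal subunit, whose other members had a median of 214 FPKM, but its near-identical pseudogene RPL7AP6 was at 249 to 252 FPKM and reads of the pair cannot be assigned with certainty, so the rank is uncertain. SURF1, at 3.14 FPKM, lay nearer the middle of its list, 8 from the bottom of 23 assembly factors of complex IV with a median of 5.31 FPKM for the others. An FPKM value cannot separate a scarce transcript from one whose reads failed to align or to be counted, and which of them applies here was not tested.

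**Figure D2:**
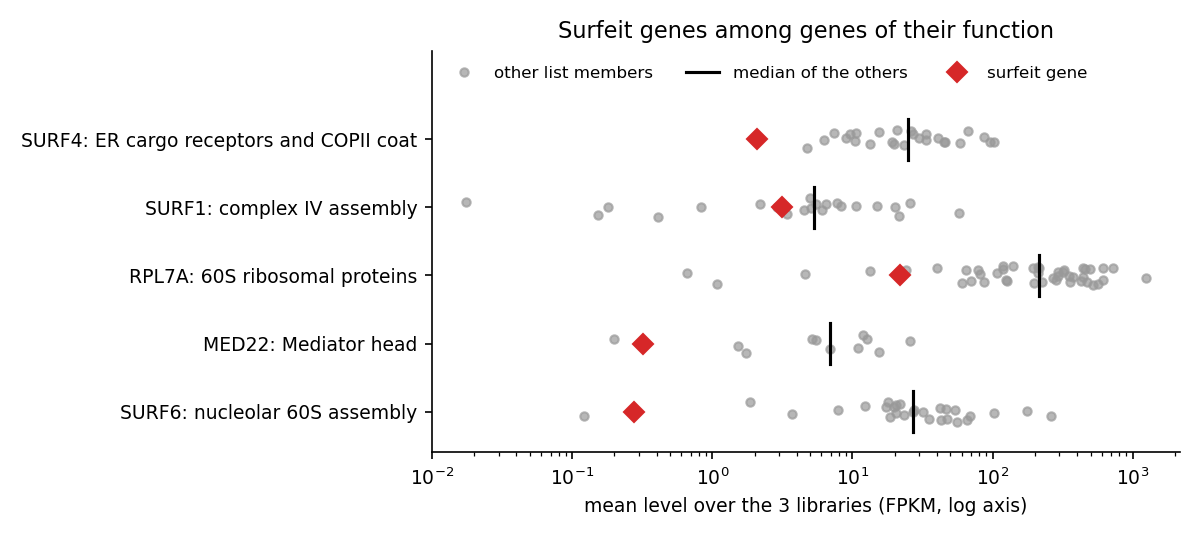
Mean level over the 3 libraries (FPKM, log axis) of 5 surfeit genes (red diamonds), of the other members of each gene list (grey points) and their median (black bar). SURF4, SURF6 and MED22 sit at or next to the low end of their lists, at 2.10, 0.274 and 0.318 FPKM, and SURF1 sits near the median.

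SURF1, the complex IV assembly factor, was at 5.73 FPKM in the control, 1.63 in WT and 2.06 in L597R (134, 45 and 60 reads). Both BRAF libraries lay below the control, and their own intervals overlapped. The read ratio to the control was 0.285 (0.199 to 0.402) in WT and 0.359 (0.260 to 0.490) in L597R.

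SURF2, which starts beside SURF1 on the other strand, was at 2.86 FPKM in the control, 1.34 in WT and 3.07 in L597R (38, 21 and 51 reads). WT alone was low. The read ratio to the control was 0.469 (0.262 to 0.820) in WT and 1.07 (0.692 to 1.68) in L597R, and that of L597R to WT was 2.29 (1.35 to 4.01).

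SURF4, the cargo receptor, was at 2.84 FPKM in the control, 1.13 in WT and 2.33 in L597R (130, 61 and 133 reads). WT was again the low library. The read ratio to the control was 0.398 (0.289 to 0.544) in WT and 0.819 (0.638 to 1.05) in L597R, and that of L597R to WT was 2.06 (1.51 to 2.83).

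MED22, the Mediator subunit, was at 0.364 FPKM in the control, 0.132 in WT and 0.458 in L597R (35, 15 and 55 reads). Its read ratio to the control was 0.364 (0.184 to 0.683) in WT and 1.26 (0.809 to 1.98) in L597R, and that of L597R to WT was 3.46 (1.93 to 6.59). More than 1 length gave whole reads for each of the 6 genes, 14 lengths for MED22 and 3 for each of the others. The reads and intervals rest on the length nearest to the annotated exons (7235 bp for MED22 with 7224 bp annotated, 4414 bp for SURF6 with 4626 bp annotated), while the ratios do not. A shorter length would mean fewer reads and wider intervals. Calls from intervals, above all those of MED22, therefore depend on that choice and were not repeated at other lengths.

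SURF6, the nucleolar protein, was at 0.187 FPKM in the control, 0.145 in WT and 0.491 in L597R (11, 10 and 36 reads). The high library was L597R, and P-Enter and WT did not differ beyond counting error. The read ratio to the control was 0.771 (0.294 to 2.0) in WT and 2.62 (1.30 to 5.71) in L597R, and that of L597R to WT was 3.40 (1.65 to 7.67).

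RPL7A, the ribosomal protein, was at 23.9 FPKM in the control, 21.8 in WT and 20.3 in L597R (711, 763 and 753 reads). The 3 libraries lay close together. The read ratio to the control was 0.911 (0.821 to 1.01) in WT and 0.848 (0.764 to 0.941) in L597R, and that of L597R to WT was 0.931 (0.841 to 1.03). RPL7A has near-identical processed pseudogenes, and 1 of them held more reads than the gene itself. RPL7AP6, on chromosome 14 from 69885340 to 69886140, had 2650, 3131 and 3355 reads in the control, WT and L597R (249, 250 and 252 FPKM), which is 3.73, 4.10 and 4.46 reads for each RPL7A read. Over 801 aligned bases it was 98.5% identical to the annotated RPL7A transcript RPL7A-202, so reads of the pair cannot be assigned with certainty. The other 20 RPL7A pseudogenes with values together held 194, 208 and 211 reads. With the reads of RPL7A and RPL7AP6 added up, the ratio to the control was 0.983 (0.939 to 1.03) in WT and 0.979 (0.935 to 1.02) in L597R. RPL7A gave 711 of the 3361 summed reads in the control, so the sum cannot show whether RPL7A itself was lower in L597R. It was formed after the values had been seen.

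**Figure D3:**
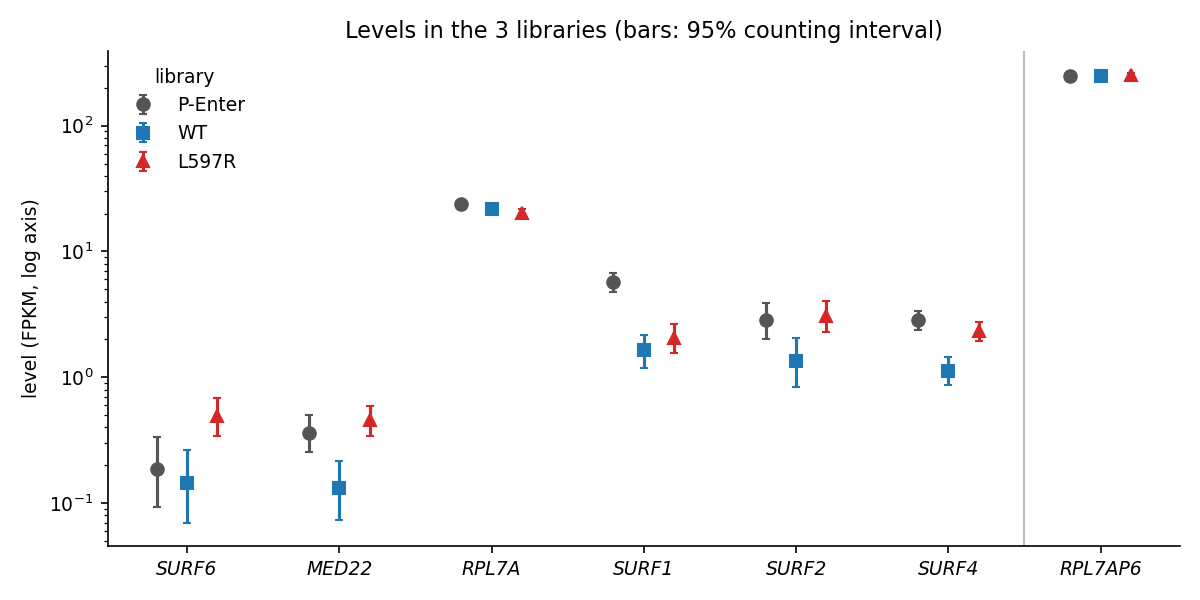
Level of each surfeit gene and of the pseudogene RPL7AP6 in the 3 libraries (FPKM, log axis), with 95% counting intervals as bars and 1 point per library. WT (blue squares) is the lowest point for SURF6, MED22, SURF1, SURF2 and SURF4, while RPL7A lies between 20.3 and 23.9 FPKM and RPL7AP6 between 249 and 252 FPKM.

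WT was set against the control to follow overexpressed wild-type BRAF. All 6 surfeit genes had a read ratio below 1 in WT, where 50.4% of 11886 genes with at least 50 reads over the 3 libraries did. The interval lay below 1 for 4 of them, MED22, SURF1, SURF2 and SURF4 (11.8% of all genes), and below 1 by more than 1.5-fold for SURF1 and SURF4 (0.345% of all genes). By the size rule, a log2(FPKM + 1) difference of at least 1 at a mean of at least 1 FPKM, only SURF1 passed (-1.35), of the 4 surfeit genes that reached the mean, against 0.978% of 10639 genes in either direction and 0.602% lower. On the same scale SURF4 differed by -0.85, SURF2 by -0.72 and RPL7A by -0.13. MED22 and SURF6 did not reach the mean. Since low values of SURF1 and SURF4 in WT chose the locus, these counts describe it and support nothing further.

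Summed over the 5 genes other than RPL7A, the cluster had 348 reads in the control, 152 in WT and 335 in L597R, or 26.2, 9.70 and 20.2 CPM (reads at a common library size). The WT sum was 0.371 (0.304 to 0.450) of the control sum. RPL7A made up 67.1% of the reads of all 6 genes in the control, 83.4% in WT and 69.2% in L597R, and with it the ratio of the sums was 0.733 (0.670 to 0.802). SURF1 and SURF4, whose low WT values chose the locus, gave 134 and 130 of the 348 control reads, so this sum restates that choice. Of the 4 genes added as neighbours, SURF2 on the plus strand and MED22 on the minus strand had intervals below 1 in WT, and those of SURF6 and RPL7A included 1.

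L597R was set against the control to follow mutant BRAF. A read ratio below 1 was seen for 3 of the 6 genes, RPL7A, SURF1 and SURF4 (51.3% of all genes). SURF1 was the 1 gene of the cluster past the size rule (-1.14), against 0.808% of all genes in either direction and 0.508% lower. The read interval lay below 1 for SURF1 and RPL7A (22.6% of all genes) and above 1 for SURF6 (24.0% of all genes), and beyond 1.5-fold for SURF1 (0.412% of all genes lower). The low SURF1 value in L597R helped to choose the locus, so the SURF1 calls here restate that choice and support nothing further. SURF2 differed by 0.08 on the log2(FPKM + 1) scale, SURF4 by -0.21 and RPL7A by -0.23. After a regression of the differences on gene length, GC content and level, SURF1 was at -0.997 and just short of the rule. Without RPL7A and SURF1 the other 4 genes summed to 214 reads in the control and 275 in L597R, a ratio of 1.03 (0.857 to 1.24). In WT the same 4 genes summed to 107 reads, a ratio to the control of 0.424 (0.333 to 0.538). Both comparisons share the P-Enter library, so a high or low value there enters both.

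L597R and WT differ in the BRAF allele and also in the amount of BRAF RNA, which was higher in L597R. None of the surfeit genes passed the size rule (0.724% of all genes did), and the log2(FPKM + 1) differences nearest to it were 0.80 for SURF2 and 0.64 for SURF4. By reads the ratio was below 1 for 1 of 6 genes, RPL7A (48.0% of all genes), and the interval lay above 1 for 4, SURF6, MED22, SURF2 and SURF4 (20.6% of all genes), and beyond 1.5-fold for SURF6, MED22 and SURF4 (0.227% of all genes). SURF1 had a ratio of 1.26 (0.841 to 1.89) and RPL7A one of 0.931. For the 5 genes without RPL7A the sum in L597R was 2.08 (1.71 to 2.54) times that in WT. Low WT values of SURF1 and SURF4 chose the locus. SURF4 enters the counts above and both genes enter this sum, so counts and sum are descriptions. The same WT library also serves WT against P-Enter, so a low value there enters both comparisons. The MED22 and SURF6 ratios rest on 15 and 10 reads in WT.

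Taking the libraries together, WT was the lowest of the 3 for 5 of the 6 genes, all but RPL7A, against 24.1% of all genes. Its read intervals lay below 1 against both other libraries for 3 genes, MED22, SURF2 and SURF4, against 1.75% of all genes. SURF1 and SURF4 are among the 5 genes and SURF4 is among the 3, and their low WT values chose the locus. These counts therefore describe it and support nothing further. SURF1 was low in both BRAF libraries, and SURF6 was high in L597R.

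Neighbours outside the cluster were followed in the same way. Within 250 kb on either side 5 further genes had values, and 3 of them, RALGDS, ADAMTS13 and CACFD1, were at 0.214 FPKM or less with intervals that included 1 in each comparison. On 2 to 14 reads per library, their WT ratios to the control were 0.990 (0.425 to 2.34) for RALGDS, 0.424 (0.0384 to 2.96) for ADAMTS13 and 0.594 (0.192 to 1.73) for CACFD1. The 2 others lay to the right of SURF4. REXO4, a nuclear exonuclease-like protein, was at 1.64 FPKM in the control, 2.09 in WT and 2.95 in L597R (58, 87 and 130 reads). Its read ratio to the control was 1.27 (0.903 to 1.81) in WT and 1.79 (1.31 to 2.49) in L597R, so its lowest library was the control. SLC2A6, a sugar transporter of lysosomes, was at 1.43, 1.43 and 1.04 FPKM. Farther out, up to 1 Mb from the cluster, 12 protein-coding genes averaged between 1.30 and 35.6 FPKM, and their read ratios to the control ran from 0.764 to 1.15 in WT, where 4 of 12 intervals left out 1, and from 0.681 to 1.26 in L597R, where 3 did. The small nucleolar RNAs of the RPL7A introns, the gene ABO to the left and STKLD1 to the right were not analysed here.

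**Figure D4:**
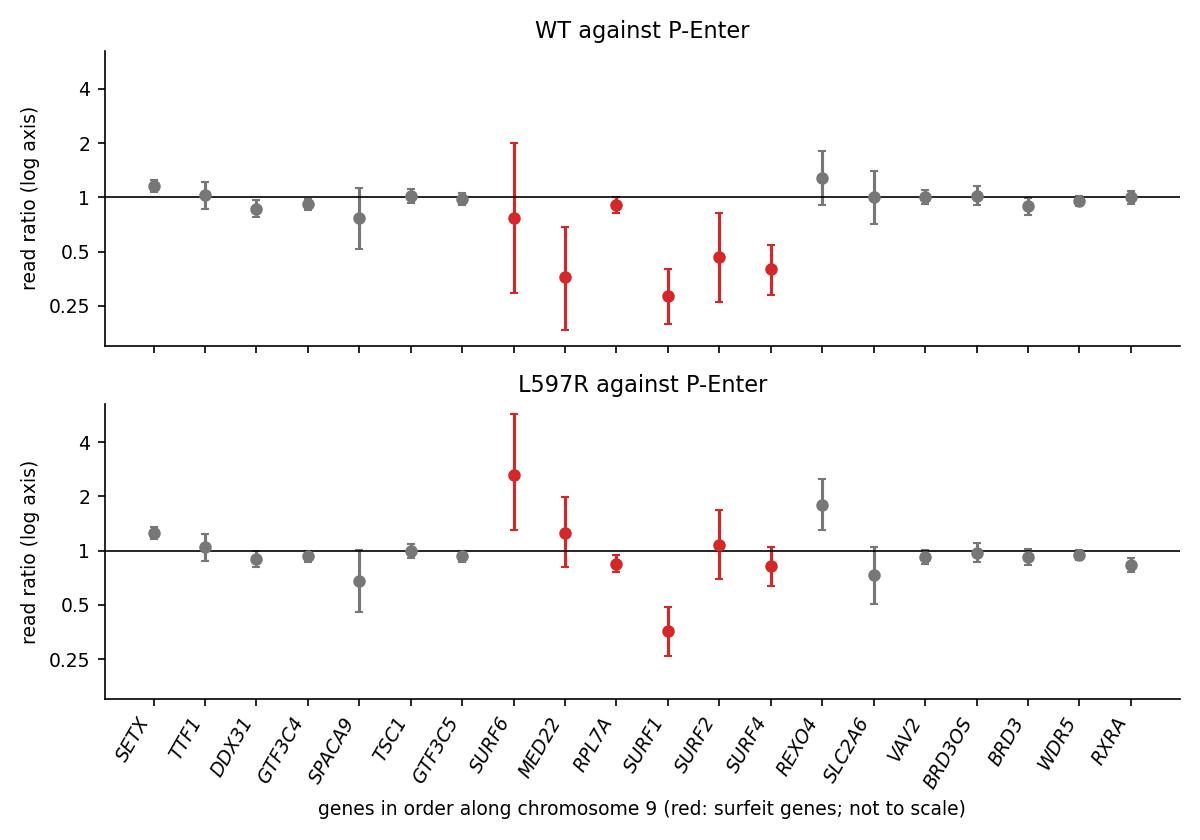
Read ratios (log axis) with 95% counting intervals for the surfeit genes (red) and for 14 protein-coding neighbours within 1 Mb at a mean of at least 1 FPKM (grey), in chromosomal order and not to scale. For WT against P-Enter (upper panel) 4 red intervals lie below 1 while the grey points stay between 0.764 and 1.27. For L597R against P-Enter (lower panel) SURF1 is the lowest point at 0.359.

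Whether genes that share a start region moved alike was described over all divergent protein-coding pairs with start sites at most 1000 bp apart. Of 740 such pairs with both genes at a mean of at least 1 FPKM, 58.4% differed in the same direction between WT and the control, 69.9% between L597R and the control and 64.1% between L597R and WT. For convergent neighbours within 5 kb, which share no promoter, these shares were 55.6%, 67.4% and 64.1% of 835 pairs, and for neighbours on the same strand 56.6%, 70.7% and 62.9% of 666 pairs. Across divergent pairs the Spearman correlation of the log2 differences was 0.225, 0.465 and 0.316 in that order, across convergent pairs 0.137, 0.419 and 0.336, and across same-strand pairs 0.156, 0.302 and 0.208. Pairs of a library share its depth and neighbours share base composition, so these are descriptions. No divergent pair had both genes past the size rule in any of the 3 comparisons, and 1 of the 835 convergent pairs did in WT against the control.

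Set among these pairs, SURF1 and SURF2 were both lower in WT, while in L597R SURF1 was lower and the SURF2 read interval included 1. For WT against P-Enter their log2(FPKM + 1) differences were -1.35 and -0.72, and no other of the 740 divergent pairs had both genes lower by at least 0.72. Among 835 convergent pairs SURF2 and SURF4 (-0.72 and -0.85) were the 1 pair lower by as much. Low WT values of SURF1 and SURF4 chose the locus, so these places among the pairs partly restate that choice and support nothing further. For L597R against P-Enter the differences of SURF1 and SURF2 were -1.14 and 0.08, which lie 1.22 apart, where the median divergent pair lay 0.151 apart and 99.9% of pairs lay at most as far apart as this one. The low SURF1 value in L597R also chose the locus, so this distance is a description as well. MED22 and RPL7A differed by -0.27 and -0.13 in WT and by 0.10 and -0.23 in L597R, each against P-Enter, but MED22 is far below the mean of 1 FPKM, where the pseudocount shrinks differences. By reads the MED22 ratio in WT was 0.364 and that of RPL7A 0.911. The shared promoter stretches printed above thus belong to 1 pair that was low together in WT and not in L597R, and to 1 pair of which MED22 was low in WT by reads while the RPL7A interval included 1.

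**Figure D5:**
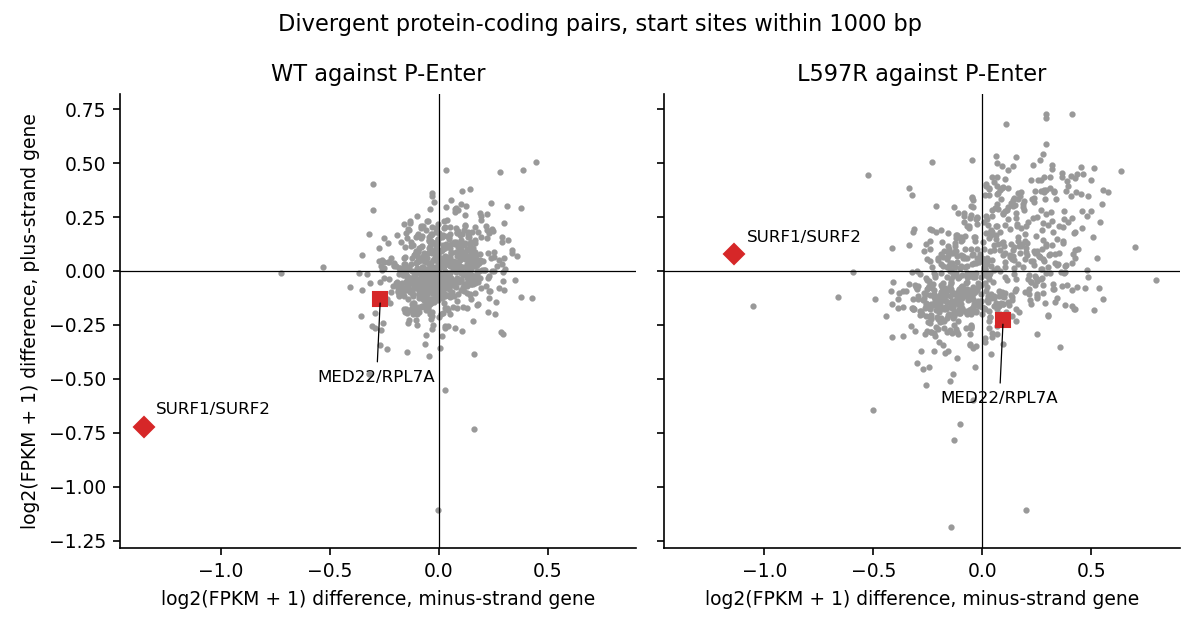
Each point is a divergent protein-coding pair, with the log2(FPKM + 1) difference of the minus-strand gene on the horizontal axis and that of the plus-strand gene on the vertical axis, for WT (left) and L597R (right) against P-Enter. SURF1 and SURF2 (red diamond) lie at -1.35 and -0.72 on the left and at -1.14 and 0.08 on the right, outside the cloud in both. MED22 and RPL7A (red square) lie within it, but MED22 averages 0.318 FPKM, below the mean of 1 FPKM asked of the other pairs. At that level the pseudocount shrinks differences, and by reads the MED22 ratio in WT was 0.364. Low SURF1 values in WT and L597R were among those that chose the locus.

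Genes that work with the surfeit proteins were followed in lists, whose counts past the size rule are to be read against 0.978%, 0.808% and 0.724% of all genes in the 3 comparisons. At those shares a list of this size would hold fewer than 1 gene past the rule, so none is near the background and 1 gene is above it. A single gene describes that gene and not its list. Over all 10639 genes compared, the median log2(FPKM + 1) difference from the control was -0.00 in WT and -0.01 in L597R, and that of L597R from WT was 0.01. Among 18 compared assembly factors of complex IV SURF1 alone passed the size rule, lower in both BRAF libraries, and the list medians were -0.01, 0.00 and 0.04 in that order. Low SURF1 values helped to choose the locus, so the SURF1 call restates that choice. None of the 12 nuclear-encoded subunits of complex IV passed (medians -0.02, -0.05 and -0.05). COX8A, a small structural subunit, was at 11.3 FPKM in the control, 14.9 in WT and 16.6 in L597R, and COX6B1 at 81.5, 83.0 and 73.6 FPKM.

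Of 27 cargo receptor and COPII genes none passed the rule, with medians of 0.03, 0.06 and 0.03. LMAN1, the cargo receptor for coagulation factors, was at 38.7 FPKM in the control, 43.0 in WT and 53.1 in L597R (read ratio of L597R to P-Enter 1.37, 1.31 to 1.43), and the coat subunit SEC24A at 6.49, 6.94 and 8.64 FPKM. Both were highest in L597R. Of 6 listed genes tied to SURF4 cargo only the COPII GTPase SAR1B could be compared, at 8.37, 8.94 and 9.60 FPKM.

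In the Mediator head 1 of 10 compared genes passed, MED18, lower in WT at 0.791 FPKM against 2.76 in P-Enter, with 0.985 in L597R (74, 25 and 33 reads in the order P-Enter, WT, L597R). The read ratio of MED18 in WT to the control was 0.287 (0.175 to 0.457), and the list medians were 0.03, 0.00 and 0.05. None of 45 compared proteins of the large ribosomal subunit passed. Their medians were -0.05, -0.08 and -0.03, with 40 of 45 below P-Enter in WT and 37 of 45 in L597R, RPL7A among them, where 5344 and 5472 of all 10639 genes were below. RPL29 was at 510 FPKM in the control, 482 in WT and 429 in L597R. Of 27 compared nucleolar assembly genes none passed (medians 0.03, 0.05 and 0.03). FBL, the methyltransferase that acts with box C/D small nucleolar RNAs, was at 35.6 FPKM in the control, 39.3 in WT and 20.2 in L597R (read ratio of L597R to P-Enter 0.569, 0.516 to 0.626), and NOC3L, a nucleolar complex protein, at 14.1, 17.2 and 20.4 FPKM. Of 20 genes listed for the locus 6 could be compared, with SURF1 the 1 past the rule, and the medians of -0.43, -0.22 and 0.28 are mainly those of the surfeit genes.

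SURF1 was the 1 surfeit gene past the size rule, so the genes nearest to it were ranked by the distance of their 2 log2(FPKM + 1) differences from P-Enter, over the 3 libraries and 6166 other protein-coding genes at a mean of at least 5 FPKM. Nearest was MTCH2, a protein of the mitochondrial outer membrane, at 46.7 FPKM in the control, 24.2 in WT and 24.6 in L597R (distance 0.495). TMEM14C, a mitochondrial protein of haem synthesis, followed at 28.9, 13.4 and 17.3 FPKM (distance 0.525), and then EIF3K, a subunit of a translation initiation factor, at 8.12, 5.13 and 2.80 FPKM (distance 0.792). They lie on chromosomes 11, 6 and 19. Relative to the control SURF1 was at -1.35 in WT and -1.14 in L597R, MTCH2 at -0.92 and -0.90, TMEM14C at -1.06 and -0.71 and EIF3K at -0.57 and -1.26. SURF1 itself, at a mean of 3.14 FPKM, and MED18 of the Mediator head lie below the mean asked of the ranked genes. MED18, singled out after its values were seen, was at -1.07 in WT and -0.92 in L597R, with read ratios of 0.287 and 0.357 (0.229 to 0.545) beside 0.285 and 0.359 for SURF1. NDUFS3, the plus-strand gene of a divergent pair with CELF1, was also outside the ranking and also picked after its values were seen. It was at -1.11 in WT and -1.19 in L597R, nearer to SURF1 than the 3 ranked genes, while CELF1 was at -0.001 and -0.14. Genes below that mean were not ranked, so the nearest of all genes was not sought. With 2 differences per gene from 3 libraries such a ranking is a description.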

How the data were processed

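Messenger RNA of 3 DU145 libraries, 1 per group, was sequenced after Trizol extraction and a stranded kit, per the labels' protocols. HISAT2, HTSeq, Trimmomatic and Cufflinks are named in the submitters' processing notes, with the builds hg38 and GRCh38. Their versions, the strand setting and the annotation release are not given in the sources used here. Each deposited file held 1 column of FPKM values by Ensembl gene, per the file headers.

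A search for the library totals and gene lengths behind these values gave whole reads in every library, within 1e-05 reads beyond the rounding of the files. It succeeded for 22434 genes (96%), whose reads summed to between 99.56% and 99.58% of the totals, with lengths nearest to the exons of GENCODE 29. Read ratios carry exact Clopper-Pearson 95% intervals conditional on the sum of both counts. They cover counting error only, since copies made by polymerase chain reaction are not independent molecules. Counts over all genes by reads used 11886 genes with at least 50 reads. The size rule used a pseudocount of 1. GC content was that of the longest annotated transcript. Symbols matched for 23330 genes and annotation for 22807. The calculations were tested on simulated data.

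The 6 members, the 8 gene lists and the rules were chosen with earlier results of these data known. Named genes were the 6 members, all genes with values within 250 kb, list members past the size rule or else the 2 with the largest differences where the mean was 5 FPKM or more, and the 3 protein-coding genes above that mean that lay nearest to a member past the rule. NDUFS3 and its pair partner CELF1 were named in addition, after their values had been seen. The design had been written for FPKM with reads as an alternative. Alternatives were pseudocounts of 0.1 and 5, no filter or a mean of 5 FPKM, thresholds of 1.5-fold and 4-fold, median ratio scaling, protein-coding genes only, recovered reads, the regression (9358 genes) and other start distances. Python 3.11.15, numpy 2.4.6, pandas 2.3.3, scipy 1.17.1, matplotlib 3.10.9 and Biopython 1.88 were used.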

Additional observations from a re-analysis of the deposited data

How the results depend on the processing

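The number of surfeit genes past the size rule, 1 in WT and 1 in L597R relative to P-Enter and 0 between the BRAF libraries, depended on the setting. For WT against P-Enter it was 3 with a pseudocount of 0.1, 3 at a threshold of 1.5-fold and 2 by recovered reads beyond 1.5-fold, but 0 with a pseudocount of 5, 0 at 4-fold and 0 with a minimum mean of 5 FPKM, which left RPL7A alone to compare. For L597R against P-Enter it was 0 with a pseudocount of 5, 0 at 4-fold, 0 with that minimum and 0 after the regression. For L597R against WT it was 1 with a pseudocount of 0.1, 2 at 1.5-fold and 3 by recovered reads. Median ratio scaling, no filter and protein-coding genes only left the 3 counts as they were. Of 90 alternative values of single genes none had the other sign. Of these, 82 moved by less than the distance from the middle to either end of the gene's read ratio interval on the log2 scale. That distance is widest for genes with few reads, so it is a loose measure for SURF6 and MED22. No divergent pair had both genes past the rule at start distances of 300 or 5000 bp either. The count of 3 genes with WT below both other libraries held with 99% intervals and median ratio scaling, chosen after seeing the data, as was the RPL7A and RPL7AP6 sum. That count includes SURF4, whose low WT value helped to choose the locus, so it remains a description. It also includes MED22, whose interval rests on the length chosen for it. No paired analysis was possible because each group had 1 library. Depth limits SURF6 and MED22 most, with 10 and 15 reads in WT.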
